A study of Mus musculus with 26 samples.

Results

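Genes induced by interferon, together with the class I antigen presentation genes that interferon also raises, were followed through brown adipose tissue of mice that had been fed, fasted, placed in the cold or both. The 40 genes were listed by symbol for their known role, with earlier results of these data known. Their shares of calls beside those of all genes are therefore a description. Of the 40, 37 reached at least 1 FPKM (mapped fragments scaled to transcript length and library size) in at least 3 of the 26 libraries, as did 12708 of the 48432 rows of the whole table. The 3 that did not were Oas1a, whose highest value was 0.766 FPKM, Mx2 at 0.476 and Mx1 at 0.203. The 2 genes that passed with exactly 3 libraries were Ifi44, whose highest value was 1.06 FPKM, and Zbp1, which reached 2.02 FPKM. Zbp1 passed through the 3 libraries of fed BKO mice (the brown fat Klf15 knockout) alone, so it had to differ from that group, and its values against it below are a description although it is counted in the totals. The 3 libraries of Ifi44 came from 3 different BKO groups.

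RNA was sequenced from brown adipose tissue of mice aged 2 months. FF mice carry loxP-flanked alleles of Klf15, a transcription factor of energy metabolism, and BKO mice carry the same alleles with 1 copy of Ucp1-Cre, which is active in brown adipocytes and leaves Klf15 intact in the other cells of the tissue. FF mice carry no Cre in the labels, so the deletion and the Cre transgene cannot be told apart. Mice of both genotypes were kept at room temperature with food or fasted there, and others met a cold challenge with food or without it. The cold groups with food hold 4 libraries each and the remaining 6 groups 3 each. The temperatures, the length of cold and fasting, the sex and the strain are not given in the sources used here.

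Klf15 lay between 9.03 and 30.6 FPKM in the 13 FF libraries and between 2.12 and 8.92 FPKM in the 13 BKO libraries, so that the genotypes did not overlap. The BKO minus FF difference of mean log2(FPKM + 1) was -2.55 in fed and -1.38 in fasted mice. It was -2.11 in cold and -2.11 in cold with fasting. Between fasted and fed mice Klf15 differed by 0.96 in BKO and by -0.22 in FF. The tissue label was met by Cidea, a brown adipocyte protein, at 1598 to 2311 FPKM in every library. Ucp1 lay between 2083 and 8700.1 FPKM in 18 libraries and was listed at 0 in the 8 cold libraries, which was treated as a failed estimate. None of the 40 genes had such a zero. The labels number the libraries CB1 to CB8, all of them FF, and CB15 to CB32. All BKO libraries and all FF libraries of cold with fasting are in the second range, FF fasted lies in the first, and FF fed and FF cold have 1 library each in the second. FF fed replicate 3 (CB31) was the lowest of its group in 28 of the 37 genes, and FF fed replicate 1 (CB7) was the highest in 26. BKO fed replicate 3 (CB29) was the highest of its group in 22. Counts of passing genes are therefore also given with each library left out, and calls that ended without a library are named.

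Interferons are cytokines that cells release on sensing viral nucleic acid. Receptor binding activates JAK kinases and transcription factors, among them STAT2 and IRF9, which act at interferon-stimulated response elements, while the response to interferon gamma runs through gamma-activated sites. The induced genes encode sensors such as RIG-I and MDA5, effectors that block translation or degrade RNA, GTPases that attack the vacuoles of pathogens, and the class I machinery, in which TAP1 pumps peptides into the endoplasmic reticulum, tapasin loads them, and beta-2 microglobulin pairs with the heavy chains that display them at the cell surface. Cells without infection keep a low tonic level of this program, and in adipose tissue it can come from adipocytes, endothelium or resident immune cells.

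Promoter sequences are shown for the genes on which the results below turn, 4 that fell with fasting in both genotypes (Igtp, Irgm2, Gbp3 and Bst2) and 2 class I genes that fell in the cold (B2m and Tap1). Each runs from 250 bases before to 50 bases after the RefSeq start site on GRCm38.p6, 5′ to 3′ on the strand of the gene. Capitals mark 2 kinds of match, the core of the response element, written GAAANNGAAA on either strand, and the core of the gamma-activated site, written TTCNNNGAA, which reads the same on both strands. The windows are chr11:58199306-58199605 for Igtp on the plus strand, chr11:58214727-58215026 for Irgm2 on the plus strand, chr3:142559794-142560093 for Gbp3 on the plus strand (the first of 2 listed start sites), chr8:71537423-71537722 for Bst2 on the minus strand, chr2:122147437-122147736 for B2m on the plus strand and chr17:34187306-34187605 for Tap1 on the plus strand.
Igtp promoter: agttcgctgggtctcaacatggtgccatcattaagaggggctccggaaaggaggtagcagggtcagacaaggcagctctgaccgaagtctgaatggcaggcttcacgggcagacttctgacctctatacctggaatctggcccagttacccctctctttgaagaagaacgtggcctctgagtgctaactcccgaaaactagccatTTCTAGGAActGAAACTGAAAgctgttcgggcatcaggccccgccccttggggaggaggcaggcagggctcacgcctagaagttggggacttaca
Irgm2 promoter: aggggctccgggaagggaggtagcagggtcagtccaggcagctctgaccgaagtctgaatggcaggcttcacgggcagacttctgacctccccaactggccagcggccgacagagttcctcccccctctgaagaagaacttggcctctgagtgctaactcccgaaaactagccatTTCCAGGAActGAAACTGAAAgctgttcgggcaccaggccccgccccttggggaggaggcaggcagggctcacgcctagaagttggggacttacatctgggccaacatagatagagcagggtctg
Gbp3 promoter: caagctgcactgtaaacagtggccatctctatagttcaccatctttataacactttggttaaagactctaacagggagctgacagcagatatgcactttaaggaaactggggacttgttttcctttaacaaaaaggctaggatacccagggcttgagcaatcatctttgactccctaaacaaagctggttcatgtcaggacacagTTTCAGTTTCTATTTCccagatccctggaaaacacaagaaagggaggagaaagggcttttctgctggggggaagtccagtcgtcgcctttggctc
Bst2 promoter: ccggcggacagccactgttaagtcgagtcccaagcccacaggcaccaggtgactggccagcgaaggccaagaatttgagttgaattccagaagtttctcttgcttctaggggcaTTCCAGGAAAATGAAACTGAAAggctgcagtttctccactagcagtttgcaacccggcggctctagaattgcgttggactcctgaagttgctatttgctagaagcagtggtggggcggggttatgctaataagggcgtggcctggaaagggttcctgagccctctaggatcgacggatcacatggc
B2m promoter: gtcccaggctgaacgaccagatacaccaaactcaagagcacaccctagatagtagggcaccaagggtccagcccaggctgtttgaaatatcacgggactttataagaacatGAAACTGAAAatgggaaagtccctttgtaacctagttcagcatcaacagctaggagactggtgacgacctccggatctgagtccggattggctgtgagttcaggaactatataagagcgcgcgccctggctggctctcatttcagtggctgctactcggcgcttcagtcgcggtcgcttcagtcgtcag
Tap1 promoter: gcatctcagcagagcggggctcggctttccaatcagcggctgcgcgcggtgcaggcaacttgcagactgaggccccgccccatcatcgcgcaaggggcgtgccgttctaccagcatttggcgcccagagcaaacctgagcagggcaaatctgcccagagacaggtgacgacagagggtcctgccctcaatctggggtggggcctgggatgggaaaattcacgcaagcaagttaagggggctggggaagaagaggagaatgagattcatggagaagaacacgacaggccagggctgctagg

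Igtp and Irgm2 held the same arrangement, a TTCNNNGAA match followed after 2 bases by a GAAA pair, the pair beginning at position -34 in Igtp and -64 in Irgm2 relative to the start site. Gbp3 held 2 overlapping pairs on the reverse strand from position -45, Bst2 held 2 overlapping pairs from position -130 that also overlap a TTCNNNGAA match at position -136, and B2m held 1 pair at position -139. The Tap1 window held neither motif. Of the 37 genes, 29 matched the promoter table by symbol, with 34 start sites, and 15 of these 34 windows (44.1%) held a GAAA pair against 3.44% of all 32851 windows of the same length. TTCNNNGAA was present in 7 of the 34 (20.6%) against 8.30% of all windows. Ifih1, Ddx58, Stat2, Ifit1, Ifit3, Rsad2, Isg15, Gbp2, Gbp7 and Irgm1 also held the pair. Such a match is a description of the letters, and binding was not measured. Dhx58, Zbp1, Oas2, Usp18, Ifi27, Rtp4, Parp9 and Parp14 had no entry. In BKO, 11 of the 15 genes with the pair and 9 of the 14 without it fell with fasting, and 10 and 7 fell in the cold, counts that were read as a description.

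Levels, which FPKM scales per length, spanned from Ifi27, with a mean of 1529.7 FPKM over the 26 libraries, to Zbp1 at 0.506. Ifi27 is a small mitochondrial protein of a family whose other member Ifi27l2a averaged 244 FPKM, and reads could be split between them. The class I genes followed, with B2m at 349 FPKM, H2-K1 at 152, H2-D1 at 129.6 and Tapbp at 52.1, whereas Tap1 was at 5.57. In FF fed mice B2m (515 ± 127 FPKM, SD, n = 3) stood above H2-K1 (207 ± 22.8). H2-K1 stood above H2-D1 (186 ± 29.6) in each library, although their ranges overlapped, and this difference was not tested. Bst2, Irf1, Ifi35, Trim25, Gbp2, Rsad2, Parp9, Igtp, Gbp3, Irf9 and Irgm1 averaged between 5.32 and 18.5 FPKM, and the other 20 genes were lower. The IFIT and OAS effectors were near the detection filter, from Ifit3 at 2.05 FPKM through Ifit2 at 1.38, Ifit1 at 1.14 and Oasl2 at 1.01 to Oas2 at 0.932. Gbp2, Gbp3 and Gbp7 lie together on chromosome 3 (chr3:142560026-142573209 for Gbp3, mm10), and Ifit1, Ifit2 and Ifit3 on chromosome 19, all with close copies. Igtp (chr11:58199556-58207591) and Irgm2 (chr11:58199618-58222782) overlap on the same strand, and Parp9 (chr16:35938470-35972605) and Dtx3l (chr16:35926511-35939151) overlap on opposite strands, so values within these pairs can share reads.

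**Figure D1:**
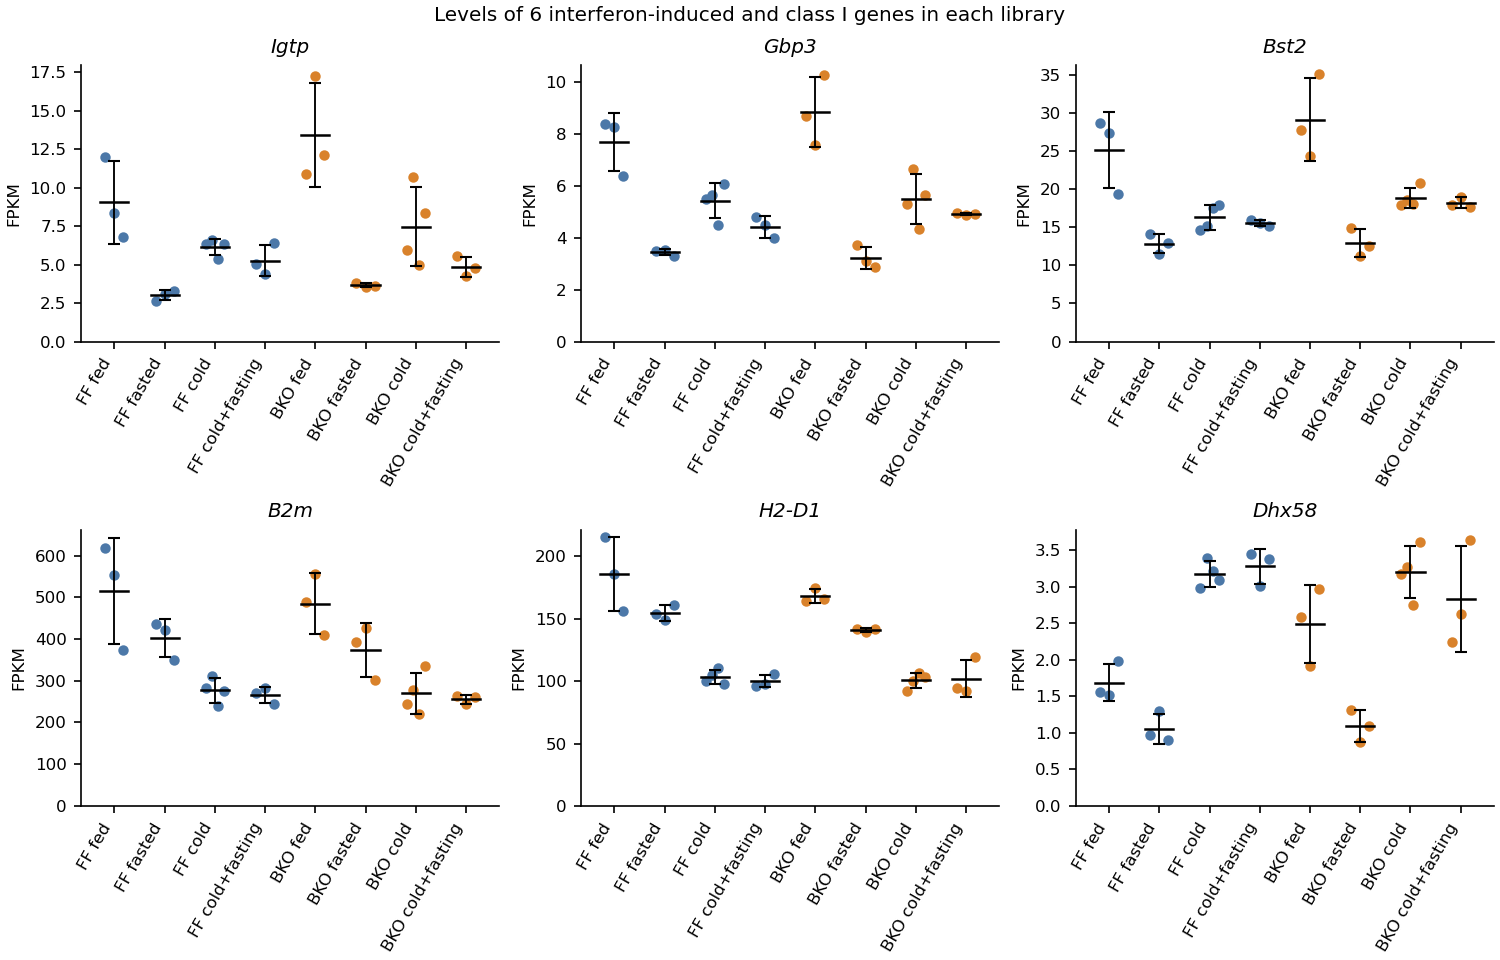
FPKM (vertical axes, linear, from 0) of Igtp, Gbp3, Bst2, B2m, H2-D1 and Dhx58 in each of the 8 groups (horizontal axes), with 1 point per library, FF in blue and BKO in orange, black lines for the group mean and error bars for the SD. Igtp, Gbp3 and Bst2 were lowest in the fasted groups, B2m and H2-D1 were lowest in both cold groups, and Dhx58 was lowest in the fasted groups and near 3 FPKM in cold.

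Fasting at room temperature lowered 20 of the 37 genes in FF and 26 in BKO, and raised none in either genotype (limma on log2(FPKM + 1) over all genes, Benjamini-Hochberg adjusted p under 0.05). Of all genes tested, 19.4% fell and 18.1% rose in FF, and 14.6% fell and 12.9% rose in BKO. The GTPases had the lowest median of the roles, -0.88 in FF and -1.03 in BKO, with 5 of 6 lower in each genotype. The median difference over the 37 genes was -0.39 in FF and -0.49 in BKO on the log2 scale, where the median of all genes was -0.000382 and -0.00617. Of the genes that fell, 18 fell in both genotypes, which is 90.0% of the FF list and 69.2% of the BKO list.

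Igtp, an immunity-related GTPase also called Irgm3, was at 12.004, 8.37 and 6.78 FPKM in the FF fed libraries and at 2.64, 3.11 and 3.27 FPKM after fasting. In BKO it went from 10.9, 17.2 and 12.1 to 3.81, 3.56 and 3.64 FPKM. The fasted libraries lay below every fed library of their genotype, with a log2 difference of -1.30 ± 0.20 (SE; limma adjusted p = 3.18e-05) in FF and -1.60 ± 0.20 (adjusted p = 3.81e-06) in BKO. Gbp3, a guanylate-binding protein, fell from 8.41, 8.28 and 6.39 to 3.49, 3.54 and 3.31 FPKM in FF and from 8.71, 7.59 and 10.3 to 3.71, 3.11 and 2.89 in BKO. Its differences were -0.96 ± 0.13 in FF and -1.21 ± 0.13 in BKO, again with no overlap between fed and fasted libraries. Irgm2, another GTPase of the family, fell by 0.83 in FF and by 1.00 in BKO on the log2 scale. Gbp2 fell by 0.85 and 1.06, and Gbp7 by 0.91 and 0.80, in FF and BKO. Irgm1, a regulatory member of the family, did not pass in FF (0.01, adjusted p = 0.96) or in BKO (-0.34, adjusted p = 0.11).

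Among the other effectors, Bst2, or tetherin, which holds budding virus at the cell surface, was at 28.6, 27.3 and 19.4 FPKM in FF fed and 14.1, 11.6 and 12.9 in FF fasted mice. In BKO it fell from 27.8, 24.4 and 35.04 to 14.96, 11.2 and 12.6 FPKM. No fasted library reached a fed library of its genotype, and the log2 difference was -0.90 ± 0.13 (limma adjusted p = 1.75e-05) in FF and -1.10 ± 0.13 (adjusted p = 1.93e-06) in BKO. Isg15, the ubiquitin-like modifier, fell from 4.46, 3.41 and 4.04 to 2.53, 1.41 and 2.43 FPKM in FF and from 5.57, 3.48 and 10.3 to 2.54, 1.80 and 2.85 in BKO. BKO fed replicate 3 was the highest of all 26 libraries for Isg15, and the BKO difference of -1.04 became -0.69 without it (limma adjusted p = 0.0178). Rtp4, a receptor chaperone that acts as an inhibitor of viral replication, fell in BKO (-1.25, adjusted p = 8.69e-05), whereas its FF value was -0.51 with an adjusted p of 0.0544. Xaf1 fell by 0.76 in FF and by 0.62 in BKO, Ifi35 by 0.36 and 0.65, and Ifi27 by 0.43 and 0.37. Ifi44 fell in BKO by 0.51. Trim25, the ubiquitin ligase that activates RIG-I, did not pass in either genotype (0.11 in FF and 0.16 in BKO), nor did Usp18, the protease that removes ISG15 (-0.08 and -0.29).

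All 4 sensors and all 4 transcription factors fell with fasting in BKO, and 3 of each fell in FF. Zbp1 is counted among these sensors although its BKO value is a description, because of the filter. Ddx58, which encodes RIG-I, fell by 0.55 in FF and 0.61 in BKO, and Dhx58, which encodes the regulator LGP2, by 0.39 and 0.73. Ifih1, which encodes MDA5, fell in BKO (-0.54, adjusted p = 0.00401) and was at -0.28 with an adjusted p of 0.101 in FF. Zbp1, a sensor of left-handed nucleic acid, was at 1.24, 1.78 and 2.02 FPKM in BKO fed mice and at 0.320, 0.252 and 0 after fasting, a change of -1.17 at levels close to the pseudocount, and it fell by 0.47 in FF. Stat2 fell from 5.19, 5.21 and 5.39 to 3.16, 3.71 and 3.87 FPKM in FF and from 4.91, 5.54 and 6.39 to 3.54, 3.90 and 3.60 in BKO, without overlap. Irf9, its partner in the interferon-stimulated gene factor, fell by 0.56 in FF and 0.42 in BKO. Irf1 fell by 0.48 and 0.60, and Irf7, the factor that amplifies interferon production, fell in BKO (-0.48) with -0.36 in FF (adjusted p = 0.0571).

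Of the 6 IFIT, OAS and viperin genes, 1 fell in FF and 3 in BKO. Oas2, which makes the activator of RNase L, fell in both genotypes (-0.46 and -0.47), and Ifit3 (-0.56) and Oasl2 (-0.37) fell in BKO, where the adjusted p of Oasl2 was 0.04999. Rsad2, which encodes viperin, was at 0.22 in FF and 0.11 in BKO and did not pass. Parp9 (0.03 and 0.10) and Dtx3l (-0.11 and -0.08), whose proteins form an ADP-ribosylating ubiquitin ligase, did not pass in either genotype. Parp14 fell in BKO (-0.33, adjusted p = 0.04999). In the class I group, H2-K1, a classical heavy chain, fell from 233, 194 and 193 to 161, 151 and 150.02 FPKM in FF and from 233, 216 and 194 to 145, 134 and 139 in BKO. Fed and fasted libraries did not overlap, with -0.42 ± 0.10 in FF and -0.61 ± 0.10 in BKO. B2m did not pass in either genotype (-0.33 and -0.38). Tap1 (-0.39) and H2-D1 (-0.25) fell in FF, where H2-D1 lost its call without FF fed replicate 1 (-0.14, adjusted p = 0.3), and Tapbp fell in BKO (-0.29).

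Without 1 library, 14 to 21 of the 37 genes passed in FF and 16 to 26 in BKO, the lowest BKO count being that without fed replicate 3. Within the libraries CB1 to CB8, which hold FF fed replicates 1 and 2 and all FF fasted libraries, 19 genes fell, so the FF response was as frequent there; without FF fed replicate 3, 21 genes passed. The calls that ended in 1 or more of these fits were those of Dhx58, Zbp1, H2-D1, Tap1, Ifi35, Irf1 and Isg15 in FF, and of Ifi27, Ifit3, Irf1, Irf7, Oasl2, Parp14, Tapbp and Xaf1 in BKO, all 8 of the latter without BKO fed replicate 3 among others. A mean of at least 5 FPKM, which leaves 17 of the 37 genes, gave 11 in FF and 10 in BKO. Zbp1 and Ifi44 left the filter in some of the BKO fits. Leukocyte transcripts moved with the same groups. The summed FPKM of 6 general leukocyte markers was 21.3 to 25.2 in FF fed and 15.6 to 18.3 in FF fasted libraries, and 26.2 to 28.1 and 14.96 to 19.8 in BKO, with 2 of the 6 lower in FF and 4 of the 6 in BKO. Cd52 fell by 0.54 in FF and 0.66 in BKO. Ighm, the lymphocyte marker that passed the filter, fell as well (-0.87 in FF and -1.08 in BKO). Of 9 macrophage markers measured, 0 passed in FF by limma (2 at an unadjusted p under 0.05) and 4 fell in BKO. Their part in the result was not tested, and in bulk tissue fewer cells of a type and less RNA per cell cannot be told apart.

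**Figure D2:**
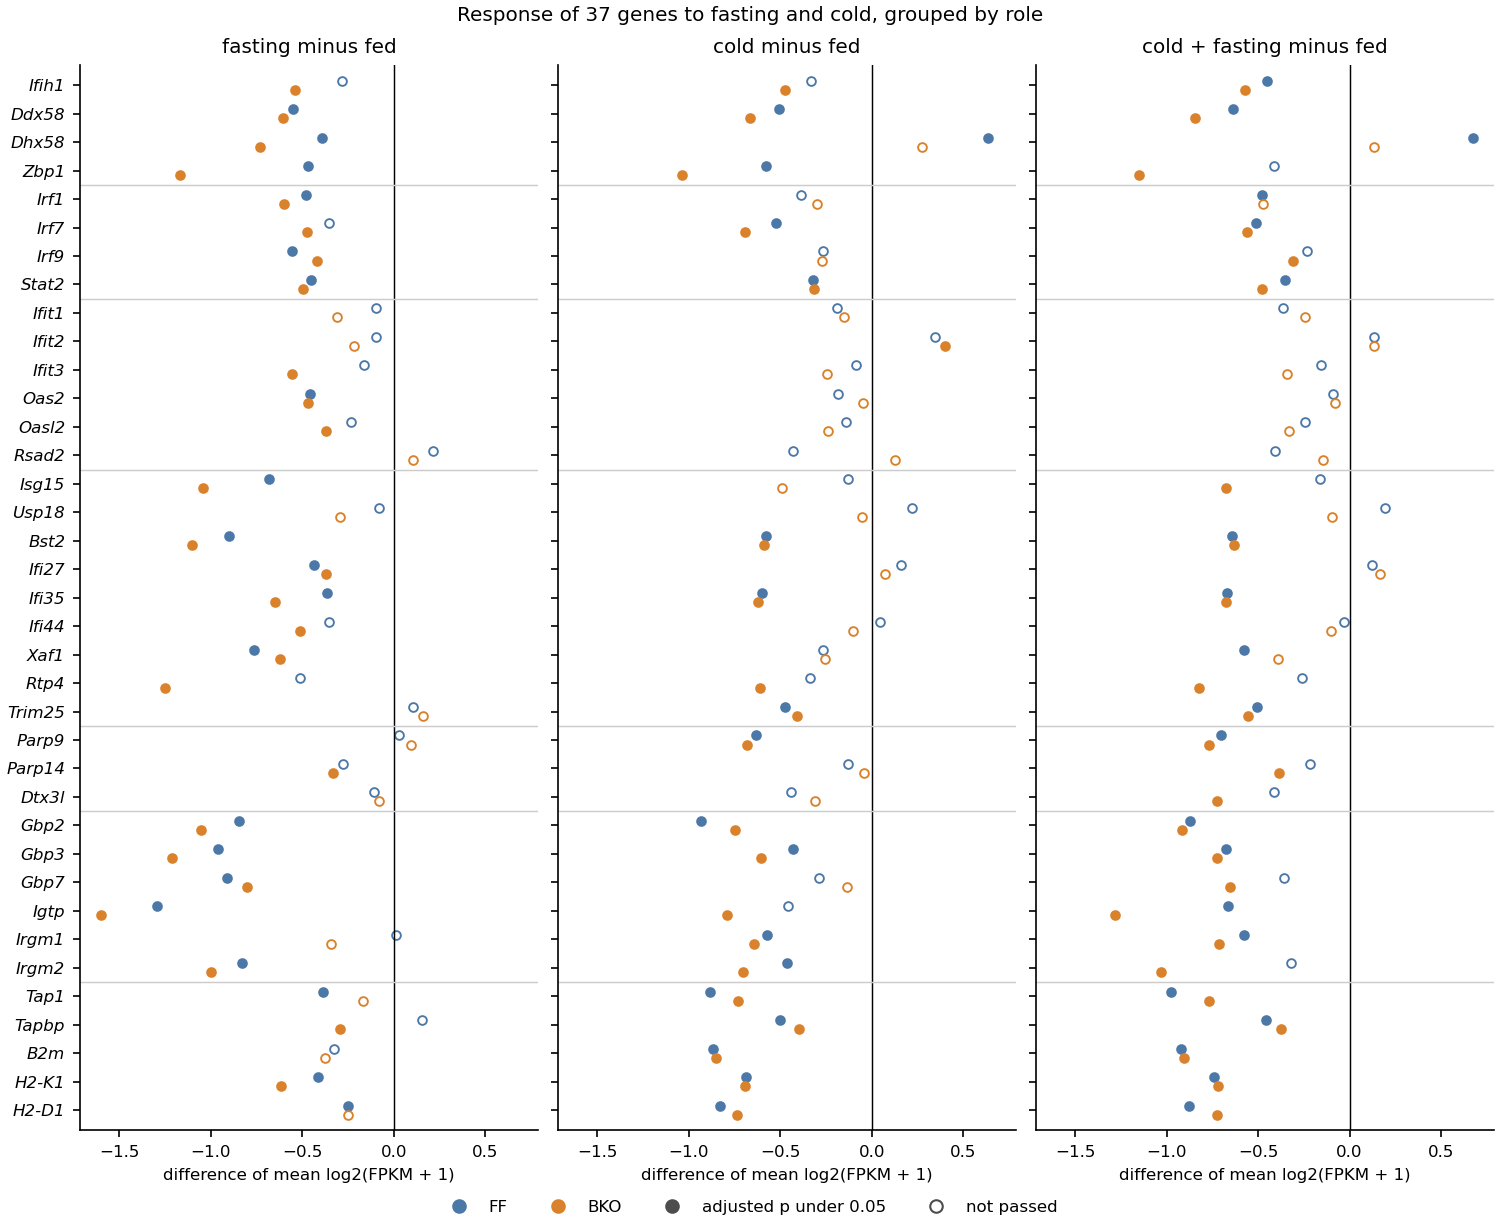
Differences of mean log2(FPKM + 1) from the fed group of the same genotype (horizontal axes) for the 37 genes (rows, grouped by role with grey lines), for fasting, cold, and cold with fasting in the 3 panels; FF is blue and BKO orange, and filled points passed the adjusted p of 0.05. Igtp lies farthest to the left under fasting in both genotypes and all 5 class I genes are filled under cold, whereas Dhx58 lies to the right in cold.

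Cold lowered 17 of the 37 genes and raised 1 in FF, and lowered 20 and raised 1 in BKO. Weighting the libraries by their variability (array weights) gave 28 lower and 3 higher in FF, where 52.6% of all genes passed. Of all genes tested, 10.3% fell and 13.3% rose in FF, and 6.51% fell and 9.72% rose in BKO. All 5 class I genes fell in both genotypes, and none of the 6 IFIT, OAS and viperin genes did. Except for Rsad2, those 6 averaged 0.932 to 2.05 FPKM, where log2(FPKM + 1) understates changes here and in the other comparisons. The median over the 37 genes was -0.43 in FF and -0.41 in BKO. All 17 genes lower in FF were also lower in BKO, which is 85.0% of the 20 there.

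B2m, the light chain of every class I molecule, was at 618, 553 and 374 FPKM in FF fed mice and 282, 311, 239 and 276 FPKM in cold. In BKO it went from 489, 556 and 409 to 245, 277, 221 and 336 FPKM. Cold and fed libraries did not overlap in either genotype, and the cold mean was 53.8% of the fed mean in FF and 55.7% in BKO, with log2 differences of -0.87 ± 0.16 (limma adjusted p = 0.000417) and -0.85 ± 0.16 (adjusted p = 0.000733). H2-D1, a heavy chain, fell from 215, 186 and 156 to 100.4, 105, 111 and 97.7 FPKM in FF and from 164, 175 and 166 to 92.3, 100.4, 107 and 103 in BKO. The values in cold kept within a narrow band below every fed library, with differences of -0.83 ± 0.09 and -0.74 ± 0.09. Tap1 fell from 8.997, 7.97 and 7.82 to 3.50, 4.43, 4.69 and 3.53 FPKM in FF and from 8.08, 9.15 and 6.53 to 4.30, 4.64, 4.54 and 3.90 in BKO, to 48.9% and 54.8% of the fed mean. H2-K1 fell by 0.69 and 0.69, and Tapbp, which encodes tapasin, by 0.50 and 0.40, in FF and BKO, again with no overlap.

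Of the 6 GTPases, 4 fell in FF and 5 in BKO in the cold. Gbp2 was at 15.5, 13.6 and 8.96 FPKM in FF fed and 6.39, 6.67, 4.25 and 7.05 in FF cold mice. In BKO it was at 12.4, 14.4 and 12.02 FPKM fed and 6.89, 8.58, 5.58 and 8.41 in cold, again without overlap (-0.94 and -0.75). Irgm1, which had not passed under fasting, fell in cold by 0.57 in FF and 0.64 in BKO. Igtp fell in BKO (-0.79; adjusted p = 0.0578 without BKO fed replicate 2) and was at -0.46 in FF (adjusted p = 0.084). Gbp7 did not pass in either genotype (-0.29 and -0.14). Parp9 fell from 8.51, 7.61 and 7.62 to 4.42, 4.88, 4.03 and 5.82 FPKM in FF and from 9.96, 8.99 and 8.42 to 5.30, 6.05, 4.15 and 5.84 in BKO. Every cold library lay below every fed one, while Dtx3l (-0.44 and -0.31) and Parp14 (-0.13 and -0.04) did not pass. Bst2 (-0.58 and -0.59), Ifi35 (-0.60 and -0.62) and Trim25 (-0.47 and -0.41) fell in both genotypes. Rtp4 fell in BKO (-0.61; -0.40 without BKO fed replicate 3) and was at -0.34 in FF (adjusted p = 0.22). Isg15 (-0.13 and -0.49) and Usp18 (0.22 and -0.05) did not pass.

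The sensors split in the cold. Dhx58 was the only one of the 37 genes that rose in FF, from 1.56, 1.52 and 1.98 FPKM in the fed libraries to 2.98, 3.40, 3.22 and 3.09 in cold, with no overlap (0.64 ± 0.12, limma adjusted p = 0.000594). In BKO it was at 2.59, 1.92 and 2.97 FPKM fed and 3.18, 3.27, 2.75 and 3.62 in cold, where the ranges overlapped and the difference of 0.27 did not pass (adjusted p = 0.129). Ddx58 fell by 0.51 in FF and 0.67 in BKO, and Ifih1 fell in BKO (-0.48) with -0.33 in FF (adjusted p = 0.057). Zbp1 fell by 0.58 in FF and 1.04 in BKO from a fed level of 0.805, 0.907 and 0.816 FPKM in FF. The BKO value of Zbp1 is a description, because of the filter. Irf7 fell from 4.10, 4.38 and 3.47 to 2.50, 2.62, 2.39 and 2.34 FPKM in FF and from 4.16, 3.59 and 5.94 to 2.83, 2.87, 2.04 and 1.95 in BKO, without overlap. Stat2 fell by 0.32 and 0.32, whereas Irf1 (-0.39 and -0.30) and Irf9 (-0.26 and -0.27) did not pass. Ifit2, an effector that binds RNA, was the gene that rose in BKO (0.40, adjusted p = 0.0358), with 0.35 in FF (adjusted p = 0.0532). That BKO call ended in 5 of the 7 fits that left out 1 library. Ifit3 (-0.09 and -0.25), Ifit1 (-0.19 and -0.15), Oasl2 (-0.14 and -0.24), Oas2 (-0.18 and -0.05) and Rsad2 (-0.43 and 0.13) did not pass.

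Without 1 library, 13 to 21 genes passed in FF cold and 16 to 19 in BKO cold, the lowest counts being those without FF fed replicate 1 and without BKO fed replicate 3. Calls that ended in 1 or more of these fits were those of Gbp3, Irgm1, Irgm2, Stat2 and Trim25 in FF and of Ifit2, Igtp, Rtp4, Stat2 and Trim25 in BKO, where Trim25 ended without any 1 of the 7 libraries and Zbp1 left the filter in some fits. A mean of at least 5 FPKM gave 13 in BKO. In FF, where label numbers divide the libraries, 15 genes fell and 1 rose within CB1 to CB8. Within CB15 to CB32, where FF fed and FF cold have 1 library each and the spread is borrowed from the other groups, 1 gene passed, and the B2m difference was -0.41 (adjusted p = 0.624). The summed leukocyte markers were 13.9 to 15.8 FPKM in FF cold and 12.5 to 18.6 in BKO cold, below the fed ranges given above, and 4 of 6 fell in FF and 5 of 6 in BKO. Macrophage markers fell in 4 of 9 in FF and 2 of 9 in BKO. Of 10 lymphocyte markers only Ighm passed the filter, the other 9 staying under 1 FPKM in every library, and Ighm rose in FF cold (2.04) with 0.51 in BKO (adjusted p = 0.292). Cd3e was at 0 in 4 libraries and Cd3d and Cd8a in 1 each. Their part in the fall of the class I genes was not tested.

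Cold with fasting against feeding at room temperature lowered 19 genes and raised 1 in FF and lowered 25 in BKO, where none rose. Of all genes tested, 8.93% fell and 11.5% rose in FF, and 8.93% fell and 10.04% rose in BKO. All 5 class I genes fell in both genotypes, as in cold alone, and 4 and 6 of the 6 GTPases fell in FF and BKO. Tap1 was at 3.72, 3.31 and 4.08 FPKM in FF and 4.41, 3.83 and 4.38 in BKO, below every fed library (-0.98 and -0.77). B2m was at 271, 283 and 244 FPKM and 263, 244 and 261 FPKM (-0.92 and -0.91). H2-D1 fell by 0.88 and 0.72, H2-K1 by 0.74 and 0.72, Gbp2 by 0.87 and 0.92, and Parp9 by 0.70 and 0.77. Igtp fell in FF (-0.66) and in BKO (-1.28), and Irgm2 fell in BKO (-1.03) and was at -0.32 in FF (adjusted p = 0.134). Zbp1 was at -1.15 in BKO, counted as lower but a description because of the filter, and at -0.41 in FF (adjusted p = 0.0781). Ddx58 fell by 0.64 and 0.85, Irf7 by 0.51 and 0.56, and Stat2 by 0.35 and 0.48. Ifih1 fell by 0.45 and 0.57, and Parp14 fell in BKO (-0.39) and was at -0.22 in FF (adjusted p = 0.232). Isg15 fell in BKO (-0.68), a call that ended without BKO fed replicate 3 (-0.33, adjusted p = 0.297), and was at -0.16 in FF. None of the 6 IFIT, OAS and viperin genes passed in either genotype by limma (1 in each at an unadjusted p under 0.05), with Ifit3 at -0.16 and -0.34 and Oasl2 at -0.24 and -0.33, nor did Usp18 (0.19 and -0.09). Dhx58 rose in FF (0.67) and was at 0.13 in BKO (adjusted p = 0.515).

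All 3 FF libraries of cold with fasting carry numbers above CB15 while 2 of the 3 FF fed libraries do not. With the number range as a covariate, 10 genes fell and 1 rose in FF, and within CB15 to CB32, with 1 FF fed library, 3 fell. Leaving out FF fed replicate 1 left 11 lower and 1 higher. Calls of Ifih1, Igtp, Irf1, Irf7, Irgm1, Stat2, Trim25 and Xaf1 in FF ended without FF fed replicate 1 or another library. BKO lies within 1 range, and 20 to 24 genes passed there without 1 library, with the calls of Dtx3l, Gbp7, Irf7, Irf9, Isg15, Parp14, Rtp4 and Trim25 ending at least once and Zbp1 leaving the filter in some fits. A mean of at least 5 FPKM gave 14 in BKO. Leukocyte markers summed to 11.8 to 15.1 FPKM in FF and 14.9 to 15.4 in BKO, with 3 and 5 of 6 lower than in fed mice, Ighm was higher (1.70 and 1.01), and their part in the result was not tested. Fed, fasted, cold and doubly challenged values share the fed libraries, so the responses are not independent of each other.

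**Figure D3:**
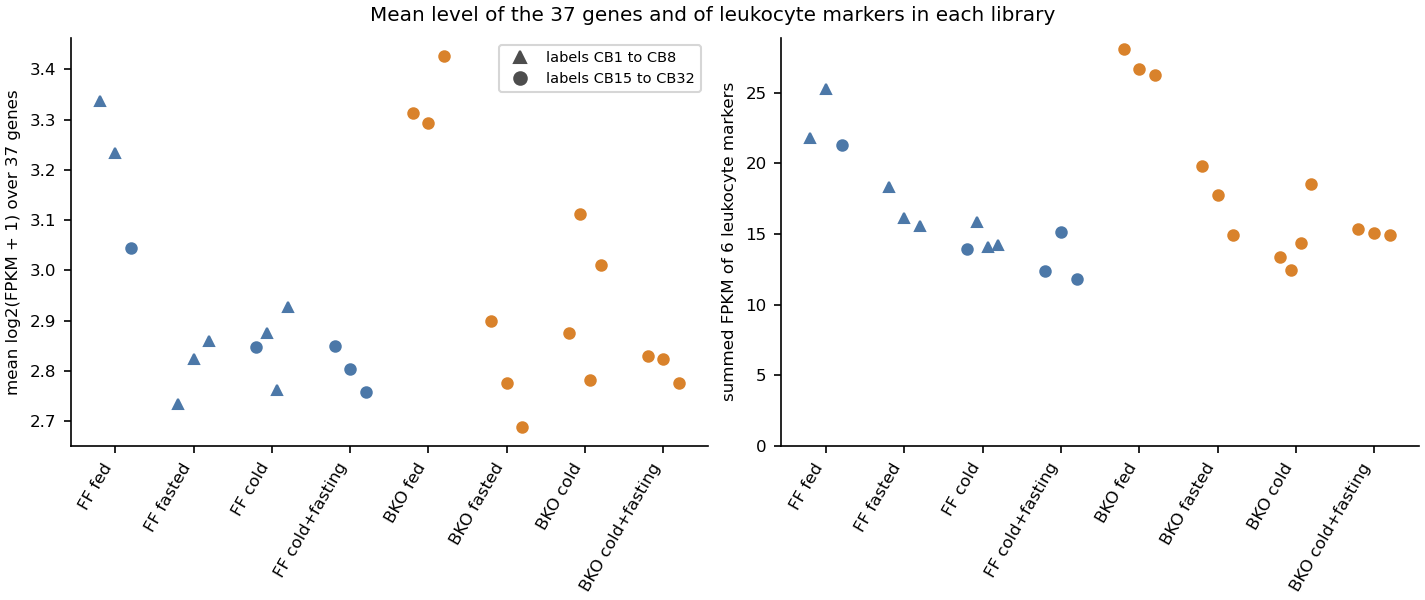
Mean log2(FPKM + 1) over the 37 genes (left) and summed FPKM of 6 leukocyte markers (right, from 0) in each library by group; triangles are libraries numbered CB1 to CB8 and circles those numbered CB15 to CB32, FF in blue and BKO in orange. Mean levels were 3.04 to 3.34 in FF fed and 3.29 to 3.43 in BKO fed libraries, and 2.69 to 3.11 in all others.

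Comparison of cold with fasting against fasting alone, which share the fasted state, called members in both directions. In FF 7 genes were higher and 10 lower, and in BKO 7 were higher and 6 lower. Of all genes tested, 26.05% were higher and 25.9% lower in FF, and 22.9% higher and 22.2% lower in BKO, so that calls were about as frequent among the 37 as among all genes. The class I genes were lower, 5 of 5 in FF and 3 of 5 in BKO, and the GTPases were mixed, with 3 of 6 higher and 1 lower in FF and 1 of 6 higher in BKO. In FF the calls of B2m, H2-K1, Irgm1 and Irgm2 ended with the label number range as a covariate.

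H2-D1 was at 154, 149 and 161 FPKM in FF fasted and 96.2, 98.1 and 106 in FF mice that were also cold. In BKO the values were 142, 139 and 142 FPKM fasted and 94.7, 92.4 and 119 with cold. The groups did not overlap, and the log2 differences were -0.62 ± 0.10 (limma adjusted p = 1.67e-05) and -0.47 ± 0.10 (adjusted p = 0.000486). Tap1 differed by -0.59 and -0.60, and B2m by -0.59 and -0.53, without overlap in either genotype. Tapbp was lower in FF (-0.61) and did not pass in BKO (-0.08), nor did H2-K1 in BKO (-0.10; -0.33 in FF). Parp9 went from 6.95, 10.2 and 7.36 to 4.45, 4.67 and 4.29 FPKM in FF and from 10.9, 10.2 and 8.45 to 4.91, 5.43 and 4.50 in BKO. It was the gene with the largest fall in both genotypes (-0.73 and -0.86). Dtx3l was lower in BKO (-0.64), where replicate 3 of cold with fasting stood at 0.449 FPKM against 1.65 and 1.49 and whose call ended without it (-0.37, adjusted p = 0.0574), and Trim25 was lower in both (-0.61 and -0.71). Irgm1 (-0.59), Rsad2 (-0.62) and Ifi35 (-0.31) were lower in FF and did not pass in BKO (-0.37, -0.25 and -0.03).

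Dhx58 was the gene with the largest rise. It was at 0.966, 1.30 and 0.899 FPKM in FF fasted and 3.45, 3.01 and 3.39 in FF cold with fasting. In BKO it was at 1.31, 0.878 and 1.09 FPKM fasted and 2.25, 2.62 and 3.65 with cold. No library of 1 condition reached the other, with 1.06 ± 0.13 in FF (limma adjusted p = 6.48e-07) and 0.86 ± 0.13 in BKO (adjusted p = 1.47e-05). Ifi27 rose by 0.56 and 0.54, from 1160.3, 1035 and 1181 to 1655, 1708 and 1606 FPKM in FF. Oas2 rose by 0.36 and 0.39. Igtp (0.63), Gbp7 (0.55), Irgm2 (0.51) and Irf9 (0.32) were higher in FF and did not pass in BKO (0.32, 0.15, -0.03 and 0.11). Gbp3 (0.49), Bst2 (0.47), Ifi44 (0.41) and Ifit2 (0.35) were higher in BKO and did not pass in FF (0.28, 0.26, 0.32 and 0.23). Whether these genes differ between genotypes in this comparison was not tested. FF fasted libraries are all CB1 to CB3 and the FF libraries of cold with fasting CB20, CB22 and CB23, so number range and condition cannot be told apart in FF without the other groups. With the range as a covariate estimated from all groups, 6 genes were higher and 4 lower in FF, and B2m became -0.31 (adjusted p = 0.333). The FF calls of H2-K1, Irgm1, Irgm2, Irf9, Ifi35, Rsad2 and Trim25 also ended with this covariate. Without 1 library, calls of Ifi35, Igtp, Irf9 and Rsad2 in FF and of B2m, Dtx3l, Ifi44 and Ifit2 in BKO ended at least once. A mean of at least 5 FPKM gave 3 higher and 5 lower in BKO. The leukocyte markers were lower in 2 of 6 in FF and 1 of 6 in BKO. Ighm was higher in both (2.57 and 2.09).

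For fasting on top of cold, none of the 37 genes passed by limma in either genotype. The difference was below 0 in 26 of the 37 in FF and in 33 in BKO. Of all genes, 48.3% in FF and 46.4% in BKO lay above 0. This direction was not tested for the genes as a set. Of all genes tested, 0% passed in FF and 0.00787% in BKO, with 376 of 12702 and 1109 of 12703 at an unadjusted p under 0.05. Among the 37 there was 1 such gene in FF and there were 6 in BKO. In FF the smallest p-values belonged to Gbp3 (-0.24, 95% interval -0.49 to -0.0004) and Xaf1 (-0.31, -0.68 to 0.07). In BKO they belonged to Gbp7 (-0.51, -0.85 to -0.18) and Parp14 (-0.35, -0.59 to -0.11). Igtp was at 5.93, 10.7, 4.99 and 8.33 FPKM in BKO cold and 5.53, 4.24 and 4.80 in BKO cold with fasting, with overlapping ranges. With array weights it was the 1 gene that passed in BKO (-0.58, adjusted p = 0.0428). The 95% interval of all 37 genes lay within 1 log2 unit of 0 in both genotypes, and within 0.5 for 34 genes in FF and 26 in BKO.

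**Figure D4:**
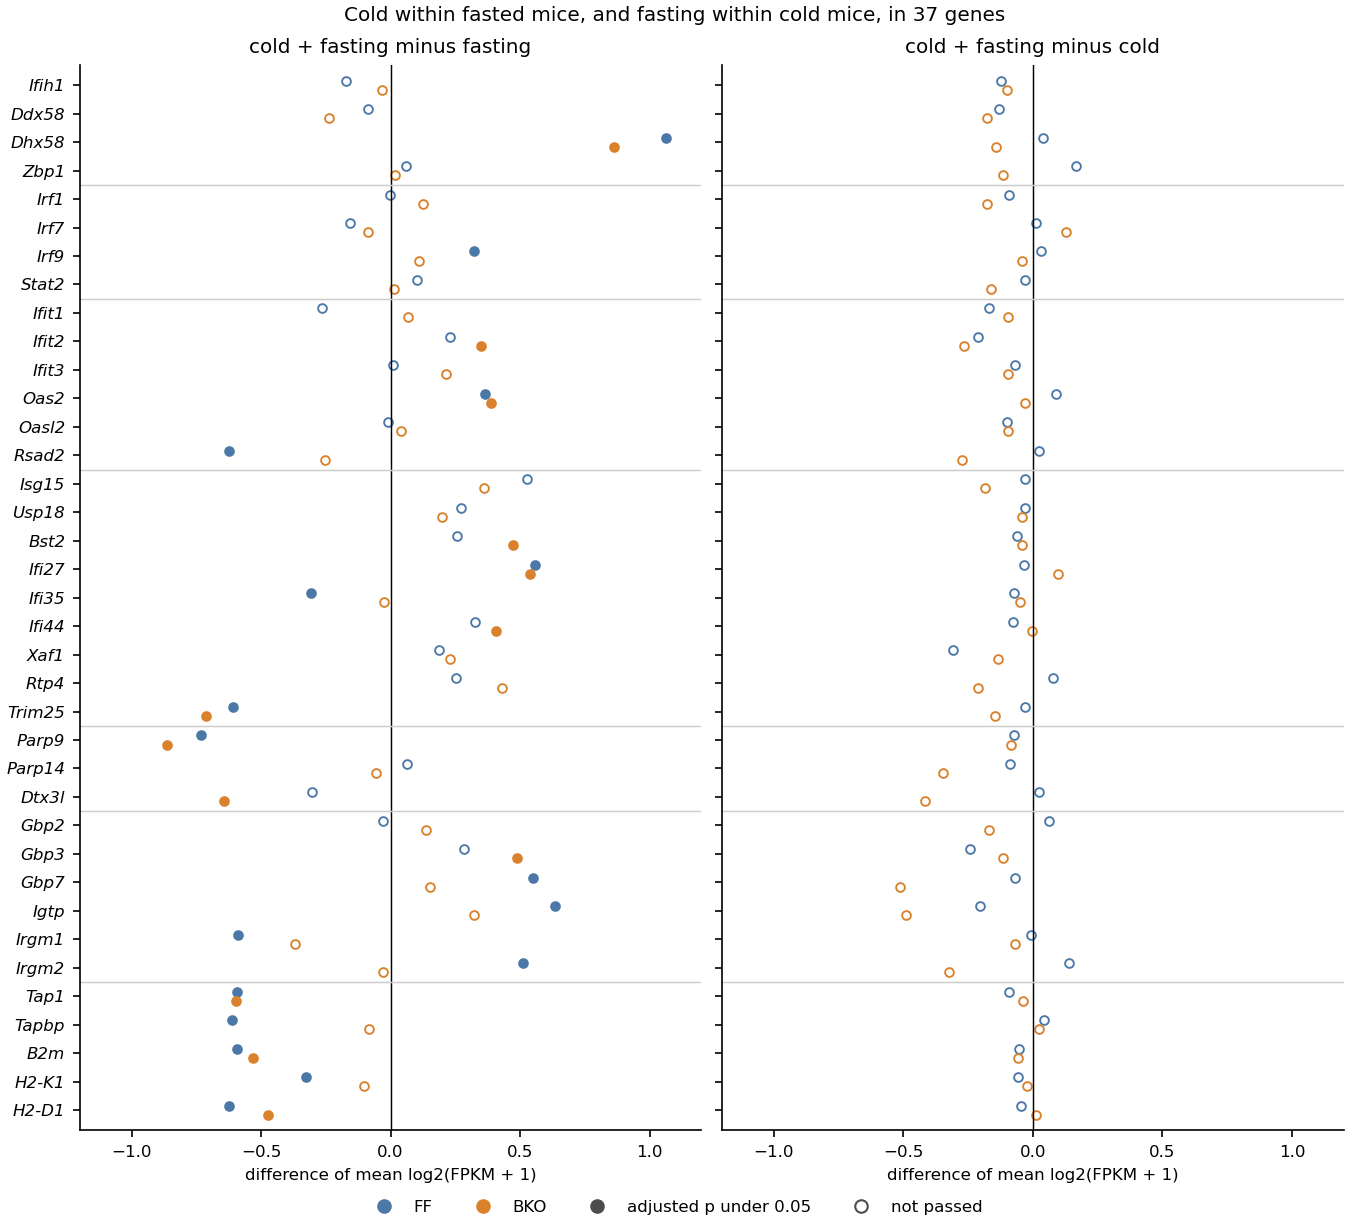
Differences of mean log2(FPKM + 1) between cold with fasting and fasting alone (left) and between cold with fasting and cold alone (right) for the 37 genes, FF in blue and BKO in orange, filled where the adjusted p was under 0.05. On the left the class I genes and Parp9 lie below 0 and Dhx58 and Ifi27 above it, whereas on the right no point is filled.

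Between genotypes 1 of these genes passed in 1 condition. Of the 37, limma passed 0 in fed, 1 in fasted, 0 in cold and 0 in cold with fasting, where 0.220%, 8.68%, 0.401% and 0.236% of all genes passed. At an unadjusted p under 0.05 there were 5, 2, 2 and 0. Among all genes there were 742 and 2969 of 12705 in fed and fasted mice. In cold and in cold with fasting there were 478 and 730 of 12703. The gene that passed was Tapbp in fasted mice, at 73.4, 56.8 and 74.5 FPKM in FF and 57.98, 45.1 and 47.9 in BKO (-0.43 ± 0.09, adjusted p = 0.00574). FF replicate 2 lay below 1 BKO library, so the groups overlapped, and the adjusted p was 0.0524 without FF fasted replicate 3 and 0.276 with the number range as a covariate. FF fasted lies wholly in CB1 to CB8 and BKO fasted in CB15 to CB32. In fed mice 4 genes passed with array weights, Irgm2 (0.56), Zbp1 (0.56), Dhx58 (0.33) and H2-D1 (-0.28), where 6.19% of all genes passed, and Irgm2 passed without BKO fed replicate 3 (0.73, adjusted p = 0.0344). Zbp1 passed the filter through BKO fed mice alone, so its value is a description.

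Averaged over the 4 conditions, 0 of the 37 genes passed by limma, 5 had an unadjusted p under 0.05, and 2.97% of all genes passed. Among all 12702 genes tested, 2404 had an unadjusted p under 0.05. The average difference was above 0 in 29 of the 37 genes and in 51.3% of all genes. By condition it was above 0 in 29 (fed), 19 (fasted), 29 (cold) and 22 (cold with fasting) of the 37. The shares of all genes were 51.2%, 49.3%, 54.9% and 48.8%. This direction was not tested for the genes as a set. The 95% intervals of all 37 lay within 0.5 log2 units of 0, from -0.27 (Trim25) to 0.42 (Igtp). All BKO libraries lie in CB15 to CB32, whereas FF fasted and most FF fed and FF cold libraries lie in CB1 to CB8. Genotype and number range are thus only partly separable on average and in fed and cold mice. These intervals do not allow for the range. The average of Irgm2 passed with array weights (0.24, adjusted p = 0.0274), by quantile normalization (0.26), without BKO fed replicate 3 (0.30) and without FF fasted replicate 2 (0.26). Parp9 passed with array weights (0.19) and without FF fasted replicate 2 (0.21), and H2-D1 with array weights (-0.14). The smallest p-values with equal weights were those of Irgm2 (0.25, interval 0.09 to 0.40, adjusted p = 0.0683) and Parp9 (0.17, 0.04 to 0.30). Irgm2 was at 5.49, 4.58 and 4.50 FPKM in FF fed and 7.63, 9.87 and 5.31 in BKO fed mice, the latter overlapping the former (0.52, adjusted p = 0.321). In fed mice Zbp1 was next (0.53, adjusted p = 0.437), in cold Irgm2 (0.28) and Rsad2 (0.46), and in cold with fasting Dtx3l (-0.33) and Bst2 (0.22). The average differences were 0.06 for Irf7, 0.03 for Stat2, -0.01 for Ifih1, 0.13 for Ifit3, 0.10 for Oasl2, 0.17 for Isg15 and 0.0045 for Usp18. They were 0.04 for Parp14, 0.21 for Igtp, 0.04 for Gbp2, 0.08 for Tap1, -0.07 for B2m, 0.01 for H2-K1 and -0.07 for H2-D1, each with an interval that lay within 0.5.

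In the fit with equal weights, the responses themselves did not pass a test of difference between genotypes in any of the 37 genes. With array weights 3 passed for cold with fasting, Irgm2 (-0.75), Zbp1 (-0.80) and Dhx58 (-0.58), with adjusted p from 0.0347 to 0.0482, where 0.795% of all genes passed, and Tapbp passed for fasting without FF fasted replicate 2 (-0.57, adjusted p = 0.0141) or without BKO fasted replicate 1 (-0.55, adjusted p = 0.0441). For fasting, cold and cold with fasting, 0.716%, 0.00787% and 0.00787% of all genes passed by limma, and 3, 2 and 4 of the 37 had an unadjusted p under 0.05. Among all genes these were 1521 of 12705 for fasting, 432 of 12703 for cold and 481 of 12703 for cold with fasting. The fasting response of Tapbp was 0.15 in FF and -0.29 in BKO (difference -0.45, interval -0.72 to -0.17, adjusted p = 0.127), and that of Zbp1 differed by -0.70 (interval -1.18 to -0.22). In cold the smallest p-values were for Zbp1 (-0.46, -0.91 to -0.01) and Dhx58 (-0.36, -0.72 to -0.01), and in cold with fasting for Irgm2 (-0.70, -1.14 to -0.27) and Zbp1 (-0.74, -1.22 to -0.27). The rise of Dhx58 that passed in FF cold and not in BKO did not pass a test of difference between genotypes (adjusted p = 1). These intervals have a median half-width of 0.38 to 0.41 log2 units. They do not allow for the label number range, which divides the FF libraries and not the BKO libraries. The values of Zbp1 in these tests are a description, since it passed the filter through BKO fed mice alone.

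**Figure D5:**
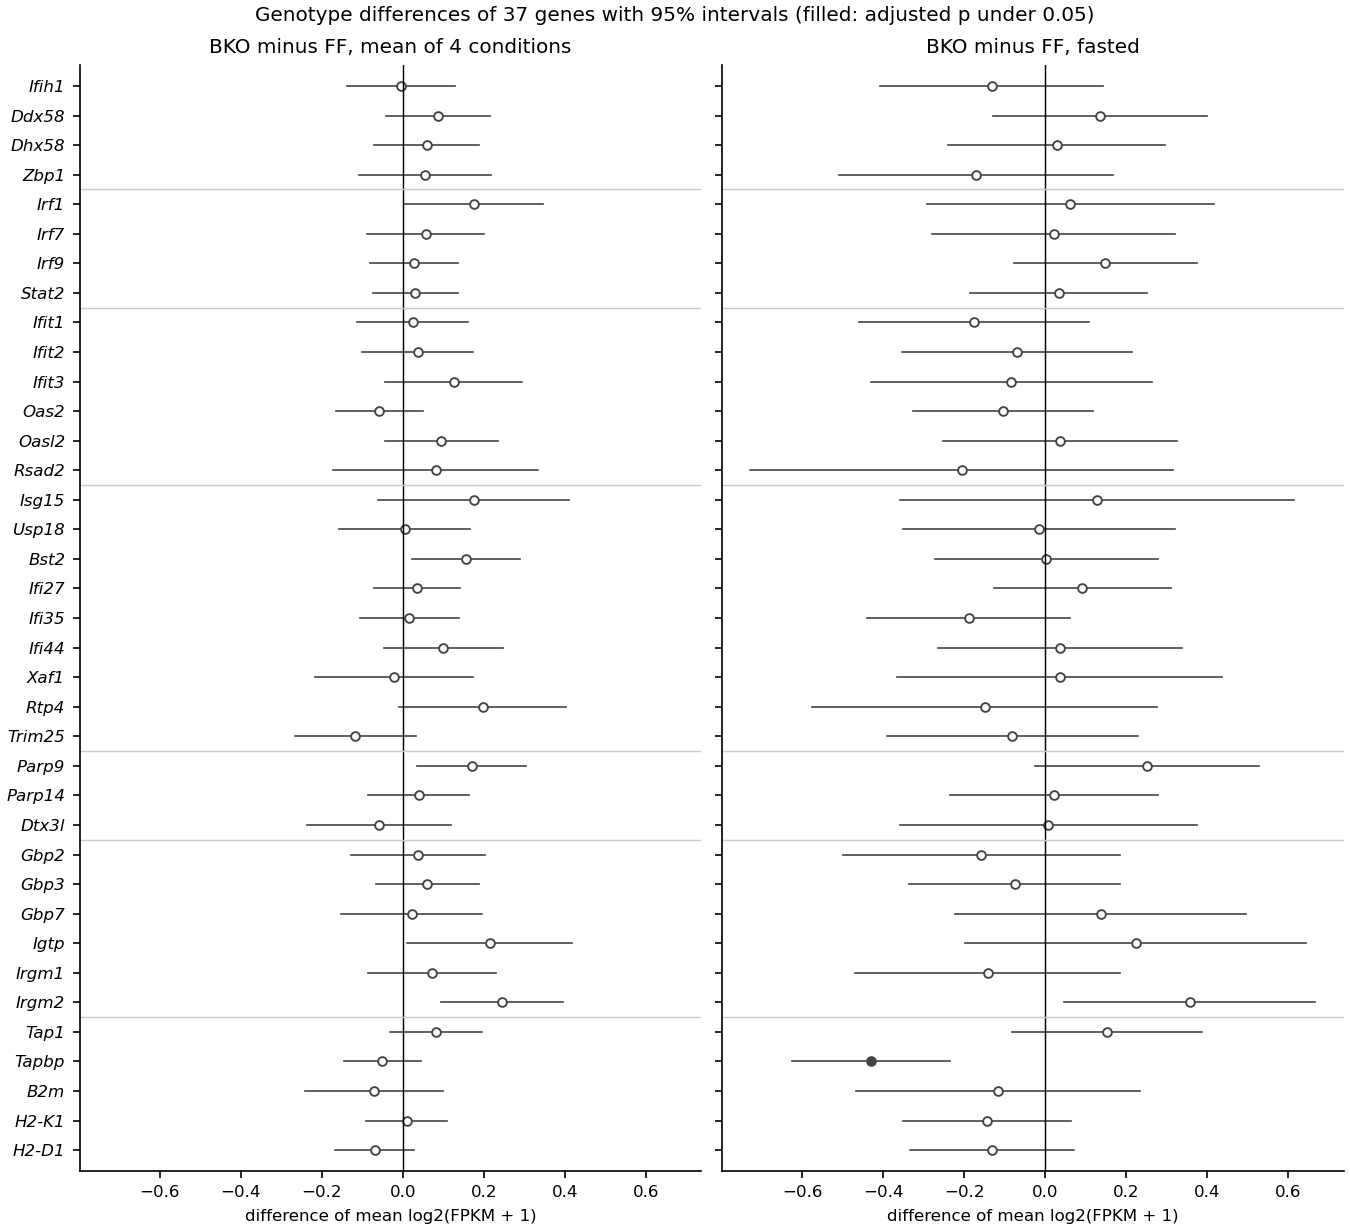
BKO minus FF difference of mean log2(FPKM + 1) with 95% intervals (horizontal lines) for the 37 genes, averaged over the 4 conditions (left) and in fasted mice (right). Every interval of the average lies within 0.5 of 0, and the filled point on the right is Tapbp.

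The wider pathway was read from 71 further genes, of which 59 passed the filter. All 7 interferon genes listed were below it, the highest value being 0.167 FPKM for Ifng, while Ifnb1, Ifna1, Ifna4, Ifnl2 and Ifnl3 were listed at 0 in every library. Of the 59, fasting lowered 25 (42.4%) and raised 3 (5.08%) in FF and lowered 24 (40.7%) and raised 1 (1.69%) in BKO. The shares of all genes were 19.4% lower and 18.1% higher in FF, and 14.6% lower and 12.9% higher in BKO. In fasted mice 3 of the 59 (5.08%) were higher in BKO than in FF and 0 were lower. Of all genes, 4.53% were higher and 4.15% lower, so the share of higher ones was near the background. Gbp6 and Gbp4, 2 further guanylate-binding proteins, were among them (0.86, limma adjusted p = 0.00359, and 0.62, adjusted p = 0.0367). FF fasted lies wholly in CB1 to CB8 and BKO fasted in CB15 to CB32, so genotype and number range cannot be told apart from these groups alone. Lgals3bp, a secreted glycoprotein, fell with fasting by 1.69 in FF and 1.67 in BKO, and Tapbpl, a tapasin relative, by 1.16 and 0.96. The chemokine gene Cxcl10 rose with fasting (0.72 and 0.83), and Myd88 (0.46) and H2-Q4 (0.35) rose in FF.

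Cold lowered 16 of the 59 (27.1%) and raised 5 (8.47%) in FF, and lowered 19 (32.2%) and raised 5 (8.47%) in BKO. The shares of all genes were 10.3% lower and 13.3% higher in FF, and 6.51% lower and 9.72% higher in BKO. Rises were thus no more frequent than among all genes. Among the lower genes, 8 in FF and 9 in BKO were from the 17 further class I genes. Psmb8 and Psmb9, subunits of the immunoproteasome that cuts peptides for class I, fell by 1.07 and 1.07 in FF and by 1.21 and 1.12 in BKO. H2-T22 fell by 0.61 in FF, and Psme1, a proteasome activator, by 0.73 in BKO. Mavs, the mitochondrial adaptor of RIG-I and MDA5, rose in cold (0.46 and 0.57), as did Ifitm2 (0.43 and 0.43), and the chaperones Calr in FF (0.33) and Canx in BKO (0.37) rose too. Cold with fasting lowered 18 (30.5%) and raised 5 (8.47%) in FF and lowered 24 (40.7%) and raised 3 (5.08%) in BKO. The shares of all genes were 8.93% lower and 11.5% higher in FF, and 8.93% lower and 10.04% higher in BKO. The falls were led by Psmb8 (-1.21 and -1.22) and Psmb9 (-1.001 and -1.01). H2-T22 was next in FF (-0.61) and Tap2, the partner of TAP1, in BKO (-0.70). Mavs was among the higher genes in both (0.63 and 0.34). Against fasting alone, cold with fasting lowered Erap1, the trimming peptidase (-0.80 in FF and -0.82 in BKO), and H2-Q4 (-0.57 and -0.58), with 17 of 59 lower (28.8%) and 18 higher (30.5%) in FF and 14 (23.7%) and 12 (20.3%) in BKO. Of all genes tested, 25.9% were lower and 26.05% higher in FF and 22.2% and 22.9% in BKO, so these shares were near the background. Ifngr1, a chain of the interferon gamma receptor, was lower in FF (-1.37).

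Interferon receptor chains stayed above the filter, Ifnar2 at a mean of 78.9 FPKM, Ifngr1 at 50.3, Ifnar1 at 12.3 and Ifngr2 at 5.40. Over the libraries, Ifnar2 ranged from 60.1 to 94.2 FPKM and Ifngr1 from 29.9 to 101.3. Ifnar1 ranged from 8.97 to 17.04 FPKM and Ifngr2 from 4.60 to 7.19. Averaged over the conditions, 0 of the 59 genes differed between genotypes by limma, with 12 at an unadjusted p under 0.05. Among all 12702 genes tested, 2.97% passed and 2404 had an unadjusted p under 0.05. Genotype and label number range are only partly separable here too.

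Markers of the other cell types in the tissue moved as follows. Of 5 natural killer cell markers, Nkg7 passed the filter, and it fell in FF cold with fasting (-0.68) and in BKO cold (-0.63) and cold with fasting (-0.84). Of 5 plasmacytoid dendritic cell markers, Bst2, itself 1 of the 37 genes, and the broadly expressed Tcf4 passed, while Siglech reached at most 0.521 FPKM and Ccr9 was at 0 in 17 libraries. Neither of the 2 neutrophil markers that passed the filter changed by limma in any comparison. Up to 2 had an unadjusted p under 0.05. All 5 listed neutrophil markers summed to between 0.823 and 13.03 FPKM. All 10 listed skeletal muscle markers had summed levels from 0.754 to 168 FPKM. Of the 8 that passed the filter, 0 changed in any comparison (0 at an unadjusted p under 0.05). The 7 endothelial markers summed to 212 to 230.4 FPKM in FF fed and 254 to 288 in FF cold libraries, with 4 of 7 higher and 1 lower, and with 3 of 7 higher in BKO cold. The 6 brown adipocyte markers with a value in every library summed to 6204 to 6710.5 FPKM in FF fed, 5269 to 6729.5 in FF fasted and 6977 to 7921 in FF cold libraries. Of those 6, 1 rose in cold in each genotype. Erythroid transcripts rose in cold, 5 of 5 in FF and 4 of 5 in BKO, with sums of 120.4 to 188 FPKM in FF fed and 342 to 601 in FF cold libraries. Ptprc, the CD45 gene of all leukocytes, was at 1.36, 1.503 and 1.003 FPKM in FF fed and 0.935, 0.876, 0.636 and 1.06 in FF cold mice. The part of these cells in the results was not tested.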

How the data were processed

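RNA from 26 libraries of brown adipose tissue was sequenced, and how RNA was selected is not given in the sources used here. The 26 values per gene are FPKM in 1 deposited table, which the authors made with STAR and Cufflinks or Cuffdiff on mm10, per the submitters' processing notes (versions, strand and counting options are not given in the sources used here). Sums of FPKM were 388107 to 501068 per library. Read depth is unknown, so no counting interval is given.

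Columns were matched to samples by the sample name that follows the CB number in the labels, and groups come from genotype and treatment labels. Replicate numbers follow the order of the samples and pair nothing. Each library's label carries a number of its own before the genotype, but nothing says what it marks or that the libraries came from separate animals, so p-values measure only the spread between them, which may be technical. A 0 beside values above 100 FPKM in other libraries was treated as missing (33 genes, none of the 40). Rows reaching 1 FPKM in 3 or more libraries entered the tests as log2(FPKM + 1), a scale that understates changes of low genes, with limma 3.58.1 in R 4.3.3 (8 groups in 1 fit, trend and Benjamini-Hochberg adjustment over all genes, threshold 0.05). Summaries used Python 3.11.15. The fit was tested on simulated data. Coordinates are from GENCODE on mm10 and promoters from RefSeq on GRCm38.p6.

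Named were the genes passing with the largest change in each comparison, up to 6 in each direction, or the 2 with the smallest p where none passed, plus Irf7, Stat2, Ifih1, Ifit3, Oasl2, Isg15, Usp18, Parp14, Igtp, Gbp2, Tap1, B2m, H2-K1, H2-D1 and Klf15. Up to 3 further pathway genes per direction were named by smallest p, and other genes were named to account for the list, after their values were seen. 1 pathway gene that this rule names is not reported here. The members and lists were chosen with earlier results of these data known. Alternatives were another pseudocount, other filters, quantile normalization, array weights, fits by group or by label number, and leaving out each library.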

Additional observations from a re-analysis of the deposited data

Results flagged for a closer look

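In groups of 4, which only the cold groups hold, 74 sets of 4 values (37 genes in FF cold and BKO cold) were checked for a library far from the others by Dixon's ratio, and 2 passed its 95% critical value. Chance gives about 1 in 20, so 2 of 74 is no more than that. Zbp1 was at 0.700 FPKM in BKO cold replicate 4 and at 0.154, 0.194 and 0.206 FPKM in the other 3 libraries, all of them under the filter of 1 FPKM. Isg15 was at 4.84 FPKM in BKO cold replicate 2 and at 3.54, 3.70 and 3.71 in the others. BKO cold replicate 2 was the highest of its group in 27 of the 37 genes.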

How the results depend on the processing

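Of the alternatives for single genes that passed, 1936 kept direction and call, 281 lost the call and 0 reversed. Without each library in turn, passing genes numbered 14 to 21 for FF fasting, 13 to 21 for FF cold, 12 to 22 for FF cold with fasting, 16 to 26 for BKO fasting, 16 to 19 for BKO cold, 20 to 24 for BKO cold with fasting, and 14 to 17 (FF) and 10 to 13 (BKO) for cold with fasting against fasting. They were 0 to 1 for genotype in fed mice, 0 to 1 in fasted mice and 0 to 2 on average (2 without FF fasted replicate 2), 0 to 1 for the difference of fasting responses (1 without FF fasted replicate 2 or BKO fasted replicate 1), and 0 in the other comparisons. Of the genes passing with all libraries, 13 of 20 (FF fasting), 13 of 18 (FF cold), 16 of 26 (BKO fasting) and 15 of 21 (BKO cold) passed in every such fit. Zbp1 (in both BKO comparisons) and Ifi44 (in BKO fasting) are not among these, since they left the filter in some of the fits. For responses against fed mice the lowest counts came without FF fed replicate 1 in FF and without BKO fed replicate 3 in BKO (tied with cold with fasting replicate 3).

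Array weights gave 31 genes in FF cold, 4 for genotype in fed mice, 3 for the average genotype difference, 1 for fasting within cold in BKO and 3 for the difference of cold with fasting responses. Quantile normalization gave 1 for the average genotype difference. A mean of at least 5 FPKM, which tests fewer genes, gave 11 in FF fasting, 10 in BKO fasting, 13 in BKO cold, 14 in BKO cold with fasting and 8 in BKO cold with fasting against fasting. Fitting only the groups compared, or the label range as a covariate, gave 0 for genotype in fasted mice. The covariate gave 11 in FF cold with fasting and 10 against fasting, and only CB15 to CB32, with fewer samples, gave 1 in FF cold and 3 in FF cold with fasting. Only CB1 to CB8, chosen after seeing the data, gave 19 in FF fasting and 16 in FF cold. The cause of these differences in counts was not tested. No paired analysis was possible because the labels tie no library of a group to a library of another.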
